A study of Homo sapiens with 43 samples.

Results

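MALAT1, NEAT1 and NORAD are long noncoding RNAs that were measured here in every library of an eCLIP series from HEK293T cells, a human embryonic kidney line. Their members are all called peaks that overlap the transcript by at least 1 nt on its own strand, in build hg19: MALAT1 at chr11:65265233-65273940 on the plus strand, NEAT1 at chr11:65190269-65213011 on the plus strand, and NORAD (LINC00657) at chr20:34633544-34638882 on the minus strand. Together they held 3792 of the 1430241 called peaks of 25 libraries, of which 1532 lay in MALAT1, 1950 in NEAT1 and 310 in NORAD. The choice of transcripts used position alone and no measured value.

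In eCLIP, protein and RNA are crosslinked in living cells with ultraviolet light (254 nm, 400 mJ/cm2), the RNA is trimmed with RNase I, the complex is immunoprecipitated and run on a protein gel, and the RNA from a slice reaching 75 kDa above the protein is sequenced. A size-matched input, the same slice without immunoprecipitation, gives the background. The 5 wild-type libraries used antibodies against endogenous HNRNPC, RBFOX2, DGCR8, FMR1 or LIN28 in cells named wt. The 6 tagged libraries used a FLAG antibody for FMR1 and DGCR8 and a V5 antibody for RBFOX2, LIN28 and isoforms 1 and 2 of HNRNPC, with tags that the series title describes as CRISPR/Cas9 insertions into the endogenous genes. The 14 tag-only libraries used the FLAG or V5 antibody with no protein named, over 7 gel ranges of 75 kDa that start 25 kDa apart, and both antibodies of a range share 1 input. The labels do not say whether a tagged line was 1 clone, nor from which cells the tag-only libraries came. Each protein and tag state had 1 library, so single-protein values have no replicate error.

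MALAT1 is an abundant nuclear RNA that concentrates at nuclear speckles, where splicing factors gather. NEAT1 is the scaffold of paraspeckles, nuclear bodies that need its long isoform; a short isoform shares the 5′ end of the long one. NORAD is mostly cytoplasmic and carries many copies of the recognition element of the PUMILIO proteins, repressors of messenger RNA. Of the proteins profiled, HNRNPC coats nascent nuclear RNA at uridine tracts, RBFOX2 is a splicing regulator that recognises (T/U)GCATG, and DGCR8 partners the nuclease DROSHA in the nucleus. FMR1, a translational regulator, and LIN28, which binds let-7 precursors and messenger RNAs, act largely in the cytoplasm; whether LIN28 here is the A or the B paralog is not stated.

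The sequences below are the RNA letters (written as DNA) next to the strongest peaks. They were read from the GENCODE v29 transcripts MALAT1-202 (8708 nt), NEAT1-202 (22743 nt) and NORAD-201 (5339 nt), whose lengths equal the hg19 intervals exactly; identity base for base between builds was not checked, and positions count from 1 at the transcript's 5′ end. The first 5 hold TGCATG, in capitals, and are those within 50 nt of a significant RBFOX2 peak. A peak is called significant here where both its −log10 p and its log2 fold over input reach 3, a fold of 8.
NEAT1 position 186: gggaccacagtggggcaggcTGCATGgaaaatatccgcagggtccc
NEAT1 position 11603: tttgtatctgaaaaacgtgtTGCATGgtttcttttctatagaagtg
NEAT1 position 14797: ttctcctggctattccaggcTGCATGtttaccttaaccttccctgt
NEAT1 position 22519: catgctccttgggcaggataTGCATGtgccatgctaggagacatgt
MALAT1 position 6255: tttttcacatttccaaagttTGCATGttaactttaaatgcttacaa

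The next 2 sequences show, in capitals, the longest T run in or within 20 nt of the HNRNPC wild type peak of highest fold in each nuclear transcript.
NEAT1 position 17385: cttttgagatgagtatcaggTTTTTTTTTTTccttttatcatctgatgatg
MALAT1 position 6548: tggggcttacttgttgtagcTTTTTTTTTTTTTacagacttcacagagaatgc

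The last pair holds TGTANATA, the PUMILIO element, in capitals, at the matches nearest to significant NORAD peaks and within 50 nt of them.
NORAD position 2639: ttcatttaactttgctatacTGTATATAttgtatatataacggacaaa
NORAD position 2972: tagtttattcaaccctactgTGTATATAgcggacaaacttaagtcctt

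These motifs were searched on the transcript strand and are unevenly spread over the 3 transcripts. TGCATG occurs 11 times in NEAT1, 3 times in MALAT1 and 0 times in NORAD. TGTANATA occurs 15 times in NORAD, 6 times in NEAT1 and 0 times in MALAT1, which is 2.81 matches per kb in NORAD against 0.264 in NEAT1. TTTTT, counted with overlaps, occurs at 9.76 per kb in MALAT1, 6.9 in NEAT1 and 4.31 in NORAD. A match is a description of the letters and not of a bound site.

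Libraries had 25723 to 100860 called peaks each; their depth in reads is unknown, as the lists give no read totals. Called peaks were densest on MALAT1, at a mean of 7.04 per kb and library, against 3.43 on NEAT1 and 2.32 on NORAD. MALAT1 had 34 to 101 called peaks per library with a median of 57, NEAT1 had 49 to 115 with a median of 77, and NORAD had 7 to 25 with a median of 11. The peaks were short, with median lengths of 32, 42 and 45 nt respectively. They covered on average 25.2% of MALAT1, 15.2% of NEAT1 and 11.1% of NORAD. No library had a called peak on MALAT1 before position 1285 or after position 8285, while NEAT1 peaks ran from position 16 to 22711 and NORAD peaks from 6 to 5223.

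Few of these peaks were enriched 8-fold. The 25 lists held 3 significant peaks in MALAT1 (0.196% of its called peaks), 23 in NEAT1 (1.18%) and 9 in NORAD (2.9%). The condition that failed differed between the transcripts. On MALAT1, 421 peaks passed the p threshold without the fold and 0 passed the fold without the p, on NEAT1 654 and 1, and on NORAD 28 and 8. Where the log2 fold lay from 1 to under 3, the median −log10 p was 19.0 on MALAT1 (190 peaks), 6.25 on NEAT1 (633) and 1.66 on NORAD (154). At like folds NORAD peaks thus had the lowest −log10 p and MALAT1 peaks the highest, so that counts of significant peaks do not compare binding between the transcripts.

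The background share of significant peaks among all called peaks of a library was 2.15% in HNRNPC wild type, 0.76% in HNRNPC V5 isoform 1 and 1.97% in HNRNPC V5 isoform 2. It was 7.03% in RBFOX2 wild type, 4% in RBFOX2 V5, 4.16% in DGCR8 wild type and 1.78% in DGCR8 FLAG. FMR1 wild type stood at 5.23%, FMR1 FLAG at 17.2%, LIN28 wild type at 4.73% and LIN28 V5 at 10.6%. In FLAG-only libraries the shares in order of gel range from 25-100 to 175-250 kDa were 1.21%, 3.75%, 6.7%, 6.43%, 22.1%, 11.5% and 6.86%, and in V5-only libraries 0.555%, 1.1%, 2.69%, 1.92%, 11.5%, 3.1% and 1.86%. The range of 125-200 kDa had the highest share with both antibodies, and the values that change without it are given both ways. Without its 2 libraries NORAD has 7 significant peaks, and MALAT1 and NEAT1 keep 3 and 23.

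RBFOX2 held most of the significant peaks on NEAT1. In RBFOX2 wild type 14 of 66 called NEAT1 peaks were significant (21.2%, exact Clopper-Pearson 95% interval 12.1 to 33.0, counting error only), against the library's background of 7.03%. That interval treats peaks as independent, but several of the 14 are abutting pieces of 1 stretch, so it is too narrow. Without that library NEAT1 keeps 9 significant peaks. In RBFOX2 V5 1 of 95 was significant (1.05%, interval 0.0266 to 5.73), against 4%. In HNRNPC wild type 3 of 78 NEAT1 peaks were significant (3.85%, interval 0.8 to 10.8), in isoform 1 3 of 96 (3.12%, interval 0.649 to 8.86) and in isoform 2 1 of 74 (1.35%, interval 0.0342 to 7.3). The background lay inside the interval in HNRNPC wild type, HNRNPC V5 isoform 1 (0.76%) and isoform 2, and in RBFOX2 V5. DGCR8 wild type had 1 of 72. FMR1, LIN28, DGCR8 FLAG and all 14 tag-only libraries had 0. For DGCR8 FLAG, 0 of 56 peaks allows a share of up to 5.36%, above its background of 1.78%. In other libraries the limit lay below the background. For FMR1 FLAG, 0 of 67 allows 4.48% against 17.2%, and for LIN28 V5, 0 of 87 allows 3.45% against 10.6%. In FLAG-only and V5-only 125-200 kDa, 0 of 57 and 0 of 102 allow 5.26% and 2.94%, against 22.1% and 11.5%. In V5-only 25-100 kDa, 0 of 77 allows 3.9%, above the background of 0.555%.

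The RBFOX2 signal was strongest at the 5′ end of NEAT1. Of the 14 significant peaks in RBFOX2 wild type, 8 lay between positions 163 and 539, and 6 of these were abutting pieces of 1 stretch from 163 to 249, so they are not independent sites. The highest of them, at positions 239 to 249 (chr11:65190507-65190517), had a log2 fold of 4.78. These positions were chosen from RBFOX2 wild type, so its own values there are a description. Over positions 163 to 539 the mean log2 fold of the called peaks was 3.20 in RBFOX2 wild type and 1.70 in RBFOX2 V5. It was 1.27 and 1.53 in DGCR8 wild type and FLAG, 0.75 and 0.34 in FMR1 wild type and FLAG, and 1.33 and 0.64 in LIN28 wild type and V5. The 3 HNRNPC libraries were lowest, at −1.28, −1.67 and −2.24, and the 14 tag-only libraries ran from −0.86 to 0.52 with a median of −0.45. The values of HNRNPC V5 isoforms 1 and 2 each rest on 1 called peak, covering 27 and 38 nt of the stretch. Called peaks covered 183 nt in HNRNPC wild type, 355 nt in RBFOX2 wild type and 334 nt in RBFOX2 V5. Over these unlike bases, RBFOX2 wild type and RBFOX2 V5 were the highest of the 25 and the HNRNPC libraries the lowest. The TGCATG at position 186 lies inside this stretch.

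**Figure D1:**
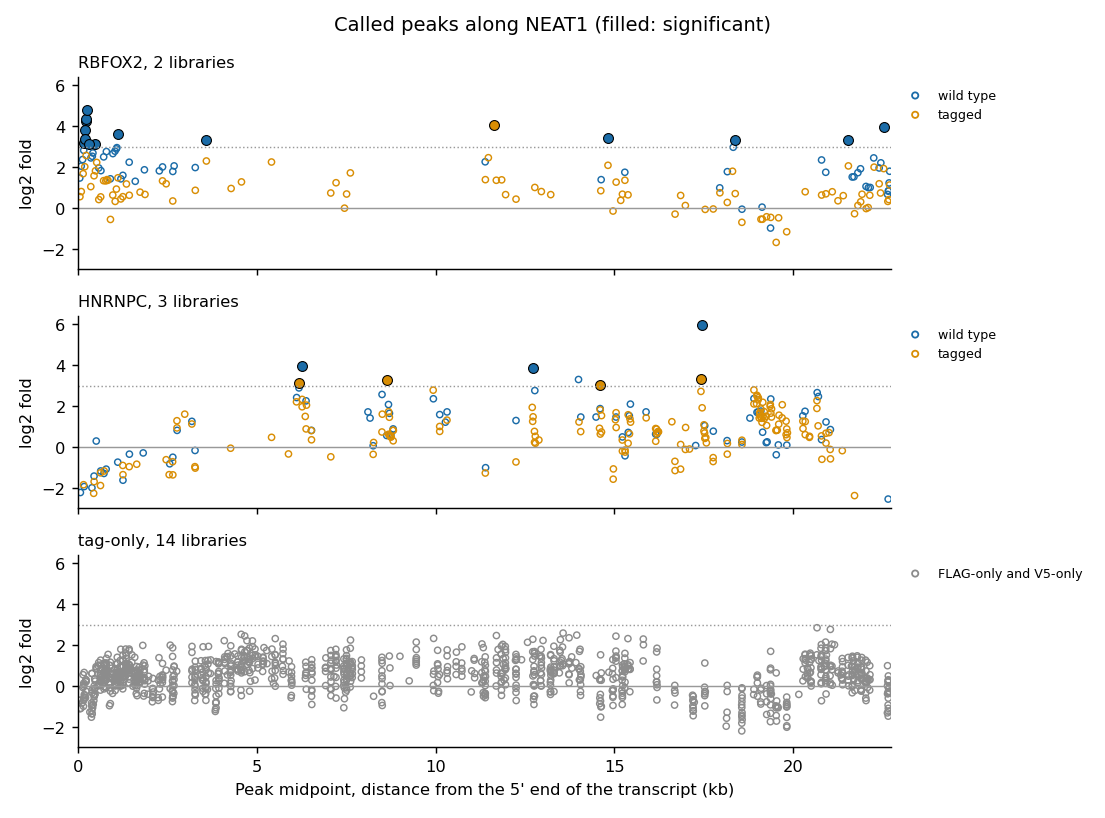
Called peaks along NEAT1, with the distance of the peak midpoint from the 5′ end in kb on the x axis and the log2 fold over input on the y axis, for RBFOX2, HNRNPC and the tag-only libraries. Filled points are significant, the dotted line marks a log2 fold of 3, and the 5′ end shows RBFOX2 peaks up to 4.78 where HNRNPC peaks lie mostly below 0.

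The HNRNPC medians were low at the 5′ end of NEAT1. In the first eighth of the transcript (positions 1 to 2843), the median log2 fold was −1.06 in HNRNPC wild type, −1.33 in isoform 1 and −1.15 in isoform 2, below each of the other 22 libraries, whose medians ran from −0.04 to 2.52. From the third eighth (from position 5687) to the 3′ end, every HNRNPC median was at least 0.56 in each eighth. In the seventh eighth (positions 17058 to 19900) the 3 HNRNPC medians were 0.77 to 1.52, while the tag-only medians were −1.86 to −0.44 for FLAG-only and −0.76 to 0.18 for V5-only. RBFOX2 wild type, at 1.00 over 7 peaks, lay among the HNRNPC values there, above HNRNPC wild type at 0.77, and the other 7 protein libraries ran from −0.84 to 0.16. The plot of peaks along NEAT1 shows both stretches.

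The site of highest fold in any of the 3 transcripts was an HNRNPC site in the 3′ part of NEAT1. It spans positions 17397 to 17476 (chr11:65207665-65207744) and had a log2 fold of 5.96 in HNRNPC wild type. On its core, positions 17399 to 17453, HNRNPC V5 isoform 2 had a log2 fold of 3.33 and isoform 1 a mean of 2.55 over 2 peaks, under the threshold. None of the other 8 protein libraries and 0 of the 14 tag-only libraries had a called peak there. The run of 11 T printed above ends at position 17395, just before the HNRNPC wild type peak. The other significant HNRNPC peaks on NEAT1 in wild type lay at positions 6242 to 6281 (log2 fold 3.98) and 12687 to 12744 (3.86), and those of isoform 1 at 6152 to 6182 (3.15), 8622 to 8628 (3.28) and 14575 to 14591 (3.02).

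Motif matches lay near many of these peaks. Of the 15 significant RBFOX2 peaks on NEAT1, 9 lay within 50 nt of a TGCATG, and 6 of the 9 belong to the stretch at 163 to 249. Single peaks near a match were those at 14810 to 14841 (log2 fold 3.43) and 22499 to 22575 (3.99) in RBFOX2 wild type and at 11626 to 11650 (4.08) in RBFOX2 V5. Positions within 50 nt of a TGCATG make up 5.13% of NEAT1, and 3.57% of the called NEAT1 peaks of the tag-only libraries lie that near. Over all called peaks, 11 of 66 in RBFOX2 wild type (16.7%) and 9 of 95 in RBFOX2 V5 (9.47%) lay that near, with a median log2 fold higher by 1.54 and 1.25 than that of the remaining NEAT1 peaks. With the peaks up to position 539 left out, the share near a match was 3 of 51 in RBFOX2 wild type (5.88%) and 6 of 86 in RBFOX2 V5 (6.98%), against 1.91% in the tag-only libraries, and the differences in fold were 1.60 and 1.20. The same difference was 1.92, 1.40 and 1.59 in the HNRNPC libraries over 3, 3 and 1 peaks, so it was not limited to RBFOX2, and it ran from −0.44 to 0.53 in the 11 tag-only libraries with such peaks.

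For HNRNPC, all 7 significant peaks on NEAT1 and the 1 on MALAT1 lay within 50 nt of TTTTT. Such positions make up 31.1% of NEAT1, and 28.6% of the called tag-only peaks on NEAT1 lie there, against 57.7%, 52.1% and 48.6% of the called peaks of HNRNPC wild type, isoform 1 and isoform 2. Peaks near TTTTT had a higher median log2 fold than the rest by 1.42, 0.89 and 0.43 in these libraries, against a range of −0.33 to 0.44 in the 14 tag-only libraries. In RBFOX2 wild type 6.06% of called NEAT1 peaks lay near TTTTT, and in RBFOX2 V5 16.8%. On MALAT1, 37.3% of positions and 49.2% of the called tag-only peaks lie within 50 nt of TTTTT. All 3 significant MALAT1 peaks do, those of RBFOX2 included, so among significant peaks this nearness was not limited to HNRNPC. Of all called MALAT1 peaks, 73.7%, 63.4% and 67.6% lay that near in the HNRNPC libraries, in the same order. The shares were 56.2% and 57.4% in RBFOX2 wild type and V5, 69.2% in DGCR8 FLAG and 34.5% to 58.2% in tag-only libraries. Peaks near TTTTT had a higher median log2 fold than the rest by 1.29, 0.74 and 0.81 in HNRNPC. The difference was −0.39 and −0.47 in RBFOX2, 0.31 in DGCR8 FLAG and −0.63 to 0.13 in tag-only libraries.

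The 3 significant peaks on MALAT1 lay at positions between 6263 and 6619. In the libraries that hold them the shares were below background, with the background inside the interval, so the count there is no result about MALAT1. RBFOX2 wild type had 2 of 48 called peaks (4.17%, interval 0.509 to 14.3, background 7.03%) and HNRNPC wild type 1 of 57 (1.75%, interval 0.0444 to 9.39, background 2.15%), and the other 23 libraries had 0. In FMR1 FLAG, 0 of 54 allows a share of up to 5.56%, against a background of 17.2%. In FLAG-only and V5-only 125-200 kDa, 0 of 56 and 0 of 86 allow 5.36% and 3.49%, against 22.1% and 11.5%. Elsewhere the limit could lie above the background, as in DGCR8 wild type (0 of 34, 8.82% against 4.16%). These limits cover counting error over peaks only. The stretch at positions 6558 to 6583 (chr11:65271790-65271815) was significant in HNRNPC wild type and RBFOX2 wild type, at log2 folds of 3.74 and 3.21. It was also above input in the tagged libraries of both proteins, at 2.26 and 1.55 for HNRNPC V5 isoforms 1 and 2 and 2.09 for RBFOX2 V5. The values of DGCR8 were 0.91 (wild type) and 1.97 (FLAG), those of FMR1 2.28 and 1.07, and LIN28 V5 had 1.87, with no called peak in LIN28 wild type. The V5-only libraries ran from 0.28 to 1.70 in all 7 ranges and the FLAG-only libraries from 0.10 to 0.40 in the 4 ranges with a peak. This stretch was thus above input in each of the 21 libraries with a peak there, and it begins in the run of 13 T printed above.

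The other significant MALAT1 peak, in RBFOX2 wild type, spanned positions 6263 to 6298 (chr11:65271495-65271530) with a log2 fold of 3.08, and starts 3 nt after the TGCATG at 6255. RBFOX2 V5 had its highest MALAT1 peak at 6270 to 6301, with a log2 fold of 2.23. In the sixth eighth of MALAT1 (positions 5443 to 6531) the RBFOX2 medians, 1.16 and 1.44, lay above those of all 23 other libraries, which reached at most 0.74. Called peaks within 50 nt of a TGCATG had a median log2 fold higher than the rest of MALAT1 by 2.05 in RBFOX2 wild type and 1.46 in RBFOX2 V5, with 7 peaks near a match in each, against differences of −0.11, −0.11 and −1.22 in the HNRNPC libraries. In the 12 tag-only libraries with such peaks the difference ran from −0.78 to 1.26, with a median of 0.16, over 1 to 3 peaks near a match. HNRNPC instead stood above all 22 other libraries in the fourth eighth (positions 3267 to 4354), with medians of 0.73 to 1.42 against at most 0.70. There both V5 isoforms had their highest MALAT1 peak, at 3505 to 3542 (log2 fold 2.97) and 3504 to 3553 (1.85).

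On NORAD the 9 significant peaks were in FMR1 FLAG, LIN28 V5 and 4 tag-only libraries, at shares near or below background in the first 2. FMR1 FLAG had 3 of 25 called peaks significant (12%, interval 2.55 to 31.2, background 17.2%), and LIN28 V5 had 2 of 17 (11.8%, interval 1.46 to 36.4, background 10.6%). FMR1 wild type had 0 of 15, which allows a share of up to 20%, and LIN28 wild type 0 of 9, which allows up to 33.3%. HNRNPC, RBFOX2 and DGCR8 had 0 in 7 libraries with 8 to 14 called peaks each; 0 of 8 allows a share of up to 37.5%, so a difference between the proteins was not detectable at these numbers of peaks. The tag-only peaks were at positions 140 to 194 (log2 fold 4.27, FLAG-only 125-200 kDa), 357 to 418 (3.40, FLAG-only 50-125 kDa), 309 to 386 (3.20, V5-only 100-175 kDa) and 824 to 875 (3.24, V5-only 125-200 kDa). In that order they were 1 of 12, 9, 14 and 14 called peaks. These shares of 8.33%, 11.1%, 7.14% and 7.14% stood against backgrounds of 22.1%, 3.75%, 1.92% and 11.5%, each inside the interval. All 4 peaks lay in the first 875 nt, whereas the 5 significant FMR1 and LIN28 peaks all lay from position 2338 on. This holds for peaks past the threshold only. In the first eighth (positions 1 to 667) the FMR1 and LIN28 medians were 1.45 to 2.12.

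**Figure D2:**
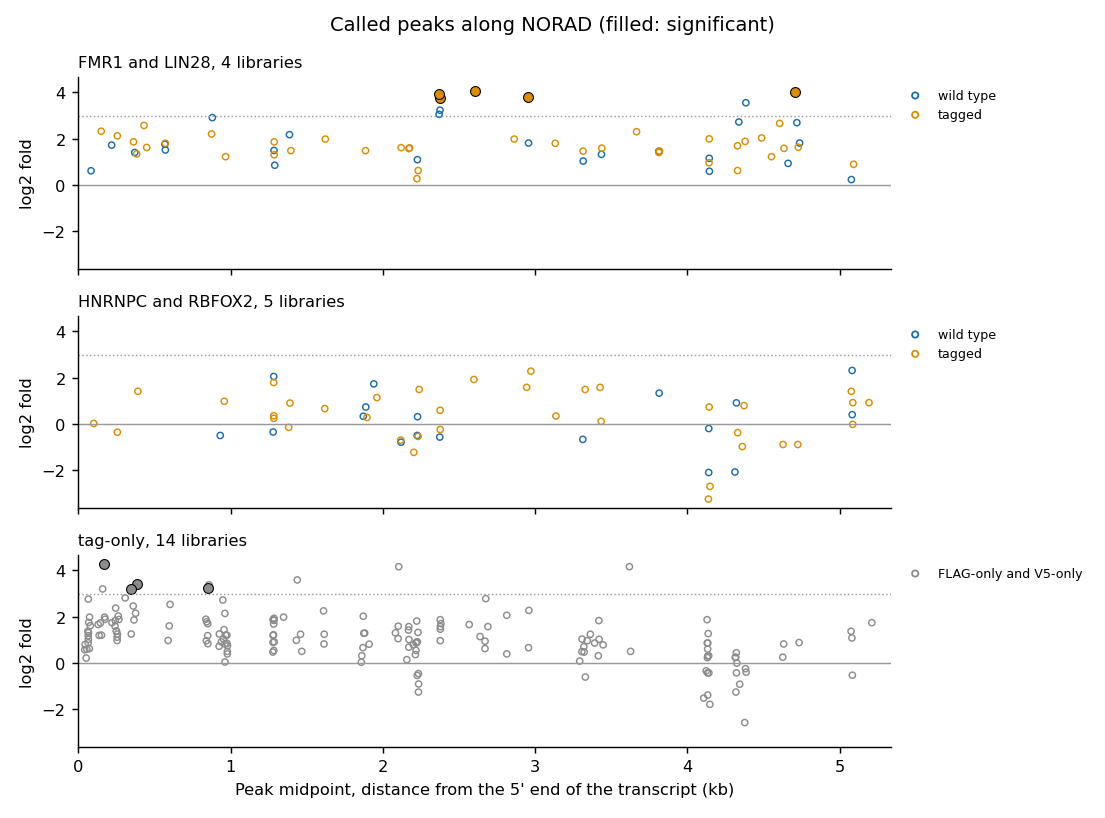
Called peaks along NORAD, with the distance of the peak midpoint from the 5′ end in kb on the x axis and the log2 fold over input on the y axis, for FMR1 with LIN28, HNRNPC with RBFOX2, and the tag-only libraries. Filled points are significant, the dotted line marks a log2 fold of 3, and every FMR1 and LIN28 peak lies above 0.

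The NORAD stretch at positions 2363 to 2392 (chr20:34636491-34636520) was chosen because it was significant in FMR1 FLAG and LIN28 V5, so those 2 values are a description. Its log2 fold was 3.23 in FMR1 wild type and 3.74 in FMR1 FLAG, and 3.05 in LIN28 wild type and 3.92 in LIN28 V5. All 4 were above a log2 fold of 3, but the wild-type peaks had a −log10 p of 1.83 and 2.89 and so were not significant. DGCR8 FLAG had 2.68, RBFOX2 V5 0.59, RBFOX2 wild type −0.57 and HNRNPC V5 isoform 2 −0.24, and the 5 tag-only libraries with a peak ran from 0.96 to 1.87. The other 9 tag-only libraries had no called peak there. A second shared stretch, at 357 to 386 (chr20:34638497-34638526), was significant in V5-only 100-175 kDa and FLAG-only 50-125 kDa. It was called in 7 of 14 tag-only libraries at 1.25 to 3.40, and at 1.34 to 1.86 in FMR1 wild type, FMR1 FLAG, LIN28 V5 and RBFOX2 V5.

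LIN28 had the highest medians towards the 3′ end of NORAD, over few peaks. In the seventh eighth (positions 4005 to 4672) they were 1.66 in wild type (2 peaks) and 1.88 in V5 (5 peaks). The medians of all 23 other libraries there ran from −2.12 to 1.40. The highest LIN28 peak on NORAD, at 4661 to 4758 in LIN28 V5 (chr20:34634125-34634222), had a log2 fold of 4.03. By its midpoint it was that library's only called peak in the last eighth. Positions within 50 nt of a GGAG, a motif of LIN28, make up 40.6% of NORAD. Neither significant LIN28 V5 peak lay that near, while 13 of 17 called peaks in LIN28 V5 (76.5%) and 5 of 9 in LIN28 wild type (55.6%) did, against 69.4% of the tag-only peaks. Of the 9 significant NORAD peaks, 2 lay within 50 nt of TGTANATA, both in FMR1 FLAG, and 24.6% of NORAD lies that near. Called peaks near TGTANATA had a lower median log2 fold than the rest in all 4 FMR1 and LIN28 libraries, by −0.19, −0.13, −1.18 and −0.30, over 2 to 7 peaks near a match. In the 13 tag-only libraries with such peaks the difference ran from −1.40 to 1.91, with a median of −0.24, and was above 0 in 4, so these 4 values lie within the tag-only range.

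The comparison of nuclear with cytoplasmic proteins used each transcript's median log2 fold over its called peaks, averaged over the libraries of a protein. The medians in single libraries come first. HNRNPC wild type, isoform 1 and isoform 2 had 0.71, 0.85 and 0.32 on MALAT1, 0.88, 0.83 and 0.75 on NEAT1, and 0.52, −0.02 and 0.24 on NORAD. RBFOX2 wild type and V5 had 0.28 and 0.26 on MALAT1, 2.04 and 0.72 on NEAT1, and −0.27 and 0.88 on NORAD, and DGCR8 wild type and FLAG had −0.01 and 0.55, 1.5 and 0.88, and 1.43 and 1.27 in the same order. FMR1 wild type and FLAG had 0.46 and −0.69 on MALAT1, 0.38 and −0.48 on NEAT1, and 1.45 and 1.63 on NORAD, and LIN28 wild type and V5 had 0.09 and 0.03, 0.90 and 0.07, and 2.17 and 1.69. NORAD medians were thus at least 1.27 in the FMR1, LIN28 and DGCR8 libraries and at most 0.88 in those of HNRNPC and RBFOX2. They were lowest in RBFOX2 wild type. In the tag-only libraries the NORAD medians ran from 0.39 to 2.49.

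Averaged per protein, the MALAT1 values were 0.63 for HNRNPC, 0.27 for RBFOX2 and 0.27 for DGCR8, against −0.11 for FMR1 and 0.06 for LIN28. On NEAT1 they were 0.82, 1.38 and 1.19 against −0.05 and 0.49. On NORAD they were 0.25, 0.30 and 1.35 against 1.54 and 1.93. On both nuclear transcripts the averages of the 3 nuclear proteins were thus above those of the 2 cytoplasmic ones, and on NORAD below. These averages did not overlap on any of the 3 transcripts, but single libraries did on MALAT1 and NEAT1. On MALAT1 FMR1 wild type, at 0.46, lay above HNRNPC V5 isoform 2 at 0.32, RBFOX2 wild type at 0.28 and RBFOX2 V5 at 0.26. It also lay above DGCR8 wild type at −0.01, as did LIN28 wild type at 0.09 and LIN28 V5 at 0.03. On NEAT1 LIN28 wild type, at 0.90, lay above all 3 HNRNPC libraries, RBFOX2 V5 at 0.72 and DGCR8 FLAG at 0.88.

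The nuclear proteins were higher by 0.42 on MALAT1 (0.39 ± 0.21, SD, n = 3, against −0.03, n = 2; two-sided exact permutation p = 0.1) and by 0.91 on NEAT1 (1.13 ± 0.29 against 0.22; exact p = 0.1). The difference on NORAD was −1.10 (0.63 ± 0.62 against 1.74; exact p = 0.2). With 10 arrangements of 5 proteins the smallest p this design allows is 0.1, so none of the 3 comparisons could pass 0.05. Over 499 windows of 10 kb with at least 3 called peaks in each of the 11 libraries, the 3 nuclear proteins all lay above both cytoplasmic ones in 9.82% and below in 22.6%, and the median difference was −0.21. The NEAT1 difference exceeded that of 93.0% of the windows, that of MALAT1 80.2% and that of NORAD 17.4%. On MALAT1 the wild-type libraries alone gave a difference of 0.05 and the tagged libraries alone 0.79. On NEAT1 the wild-type libraries alone gave 0.84 (exact permutation p = 0.3) and the tagged libraries alone 1.0 (exact permutation p = 0.1). FMR1 wild type, at 0.46 on MALAT1, was above RBFOX2 wild type at 0.28, and FMR1 FLAG was lowest of all 25 at −0.69.

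**Figure D3:**
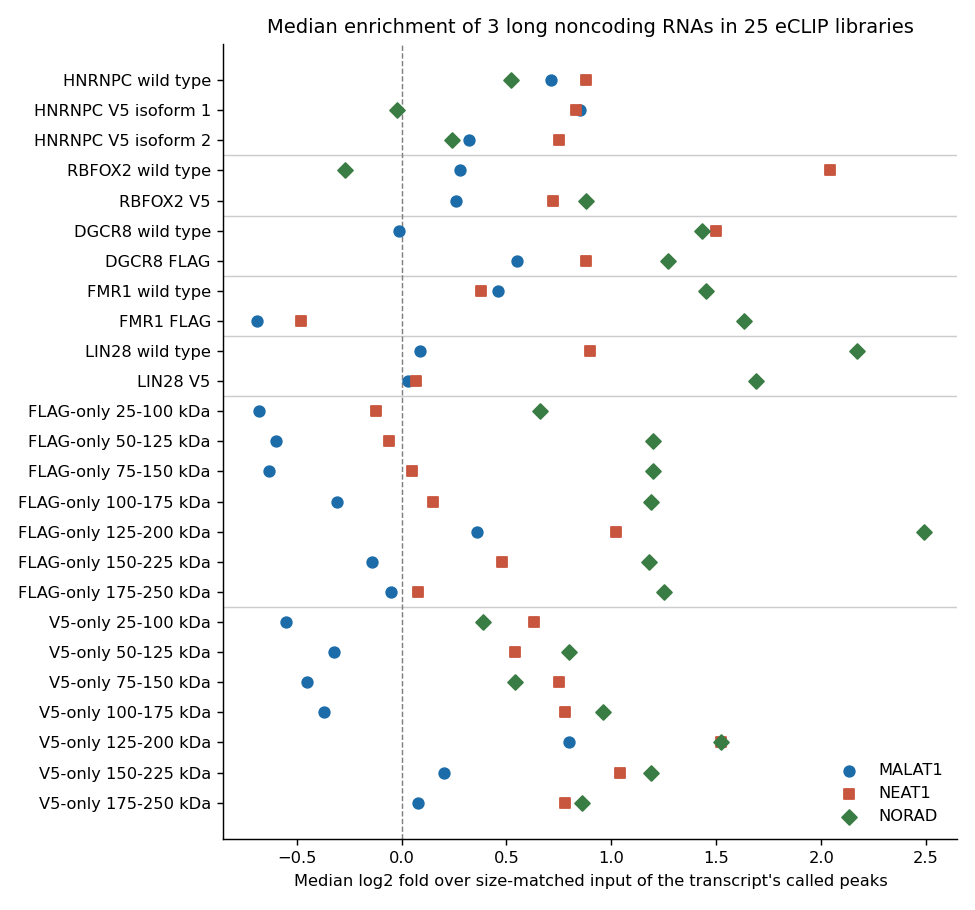
Median log2 fold over size-matched input of the called peaks on MALAT1, NEAT1 and NORAD (x axis) in each of the 25 libraries (y axis), 1 point per transcript and library. NORAD is highest of the 3 in all FMR1, LIN28 and FLAG-only libraries, and MALAT1 is lowest in all tag-only libraries.

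The order of the transcripts within a library varied. NORAD was above MALAT1 in 4 of 4 FMR1 and LIN28 libraries, by 0.99 to 2.32, and in 1 of 5 HNRNPC and RBFOX2 libraries, the exception being RBFOX2 V5 at 0.88 against 0.26. In DGCR8 it was above in 2 of 2, by 0.72 to 1.44. The lowest and highest NORAD medians were −0.27 in RBFOX2 wild type and 2.49 in FLAG-only 125-200 kDa. NEAT1 was above MALAT1 in 23 of 25 libraries, and the exceptions, HNRNPC V5 isoform 1 and FMR1 wild type, differed by 0.02 and 0.08 at most in size (−0.02 and −0.08). The highest NEAT1 median was 2.04 in RBFOX2 wild type and its lowest −0.48 in FMR1 FLAG. The tag-only libraries, with no protein named, also put NORAD above MALAT1 in 14 of 14, by 0.72 to 2.13, so this order by itself is not particular to FMR1 and LIN28. Fewer molecules of an RNA in the input and stronger binding per molecule cannot be told apart from the order between transcripts, since peaks were called on reads of the immunoprecipitation.

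Against all called peaks of the same library, the medians of the 3 transcripts were low. The MALAT1 median lay at the 0.739th to 44.3rd percentile, with a median of 4.93 over the 25 libraries, the NEAT1 median at 1.48 to 70.1 with a median of 17.7, and the NORAD median at 5.87 to 61.2 with a median of 25.2. The highest percentile was reached on MALAT1 in HNRNPC V5 isoform 1, on NEAT1 in RBFOX2 wild type and on NORAD in LIN28 wild type.

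The tag-only libraries allow a comparison over 7 gel ranges of what the FLAG and the V5 antibody recovered from these RNAs. NEAT1 was lower with FLAG in all 7. Its FLAG-only medians, from 25-100 to 175-250 kDa, were −0.12, −0.06, 0.05, 0.15, 1.02, 0.48 and 0.08, and its V5-only medians 0.63, 0.54, 0.75, 0.78, 1.52, 1.04 and 0.78. The pooled values of the 2 antibodies overlap through the 125-200 kDa range, but each pair of a range differed by −0.74 to −0.50. The mean difference, FLAG-only minus V5-only, was −0.63 ± 0.09 (SD, n = 7 ranges; exact permutation of signs, two-sided, p = 0.0156, the smallest that 7 ranges allow; Benjamini-Hochberg adjusted p = 0.0473 over 1854 features). V5-only also gave more called NEAT1 peaks, 77 to 115 against 49 to 95.

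**Figure D4:**
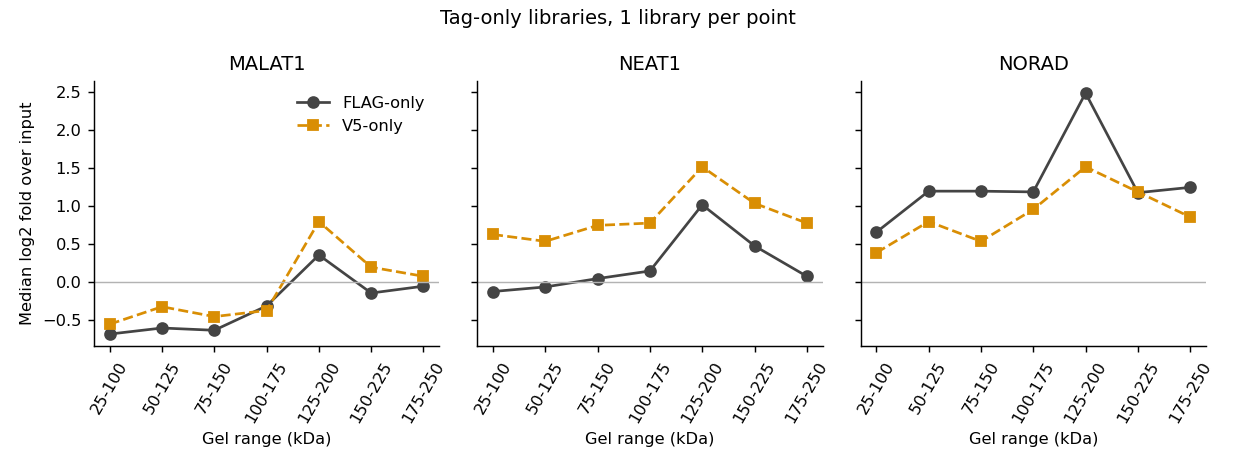
Median log2 fold over input of called peaks on MALAT1, NEAT1 and NORAD (y axis) by gel range in kDa (x axis), for FLAG-only (solid line, circles) and V5-only (dashed line, squares), 1 library per point. The NEAT1 lines do not cross, and all 6 lines peak at 125-200 kDa.

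This difference ran against the trend of other regions. The same test was run on 1851 windows of 10 kb with at least 3 called peaks in each of the 14 libraries, beside the 3 transcripts. The median difference over windows was 0.36, with FLAG-only higher. Adjusted p was 0.05 or less with FLAG-only lower in 1.13% of the features and with FLAG-only higher in 31.9%. The sign-flip adjusted p of NEAT1, 0.0473, was the smallest of any feature. Its size depends on how many features reach the smallest unadjusted p, and most of these had FLAG-only higher. The NEAT1 difference lay below that of all but 0.486% of the windows.

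MALAT1 and NORAD differed less between the antibodies. In order of gel range the MALAT1 medians were −0.68, −0.60, −0.63, −0.31, 0.36, −0.14 and −0.05 in FLAG-only and −0.55, −0.32, −0.45, −0.37, 0.80, 0.20 and 0.08 in V5-only libraries. MALAT1 was lower with FLAG in 6 of 7 ranges, with a mean difference of −0.21 ± 0.17 (SD, n = 7; exact sign-flip p = 0.0312, adjusted p = 0.0732), and 3.94% of windows were lower than it. Without the 125-200 kDa range the MALAT1 difference was −0.17 (exact sign-flip adjusted p = 0.135). The NORAD medians were 0.66, 1.2, 1.2, 1.19, 2.49, 1.18 and 1.25 in FLAG-only and 0.39, 0.80, 0.54, 0.96, 1.52, 1.19 and 0.86 in V5-only libraries. NORAD was higher with FLAG in 6 of 7 ranges, with a mean difference of 0.41 ± 0.32 (SD, n = 7; exact sign-flip p = 0.0312, adjusted p = 0.0732), and 57.6% of windows were lower than it. Neither passed the adjusted threshold. The FLAG-only NORAD value of 2.49 at 125-200 kDa was far above the next, 1.25, and without that range the NORAD difference was 0.32. The NEAT1 difference was −0.66 without it, with an exact sign-flip adjusted p of 0.0877, where 6 ranges allow no unadjusted p below 0.0312. With each library's median over all called peaks subtracted it was −1.04 with an adjusted p of 0.121, and the NORAD difference was then 0.01.

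**Figure D5:**
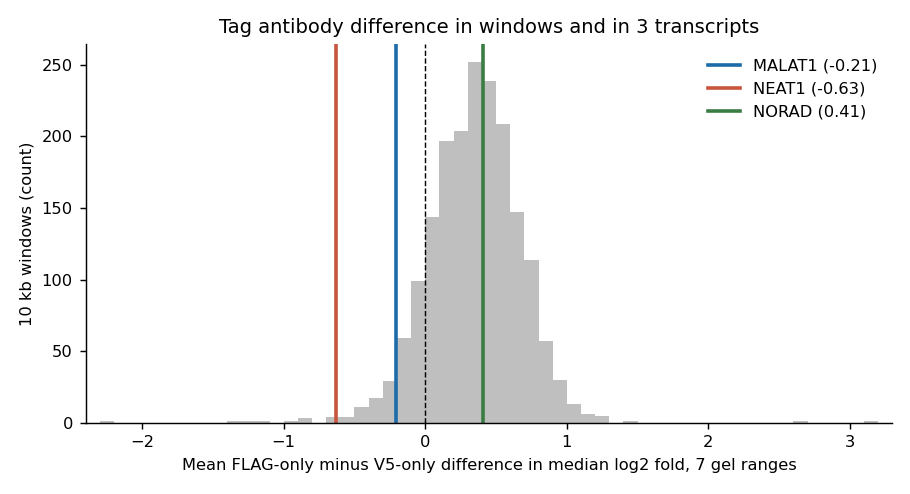
Number of 10 kb windows (y axis) by their mean FLAG-only minus V5-only difference in median log2 fold over 7 gel ranges (x axis), with vertical lines for the 3 transcripts. NEAT1 at −0.63 lies in the left tail, MALAT1 at −0.21 left of most windows and NORAD at 0.41 near the centre.

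On shared bases the direction was the same in each transcript. Restricted to bases covered by a called peak of both libraries of a range, between 1564 and 3187 nt of NEAT1 per range, the NEAT1 difference was −0.58 to −0.38 in the 7 ranges with a mean of −0.50. On the same restriction MALAT1 was lower with FLAG in 7 of 7 ranges (−0.40 to −0.03, mean −0.23) and NORAD higher in 7 of 7 (0.16 to 0.57, mean 0.32), each with an adjusted exact sign-flip p of 0.0269. Neighbouring ranges share part of the gel and nothing says that the libraries came from separate cultures, so these p-values measure the spread between libraries, which may be technical.

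Across the 25 libraries the medians of MALAT1 and NEAT1 moved together (Spearman rho 0.69), and neither followed NORAD (0.00 and −0.09). Of 386 windows with at least 3 called peaks in every library, the one most like both nuclear transcripts was the same, chr16:31190001-31200000 on the plus strand, with rho of 0.63 for MALAT1 and 0.75 for NEAT1. Next came chr1:28830001-28840000 on the plus strand (0.63) and chr1:28900001-28910000 on the minus strand (0.60) for MALAT1, and chr16:2310001-2320000 on the minus strand (0.60) and again chr1:28830001-28840000 (0.59) for NEAT1. For NORAD they were chr15:68580001-68590000 (plus strand, 0.80), chr2:201680001-201690000 (plus strand, 0.74) and chr12:6690001-6700000 (minus strand, 0.74). The median rho over windows was −0.18, −0.06 and 0.25 for MALAT1, NEAT1 and NORAD. These are descriptions over libraries that share inputs and antibodies, and the windows are hg19 intervals without a gene name, since no annotation of that build was used here.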

How the data were processed

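eCLIP peak lists of 25 immunoprecipitation libraries were analysed; the 18 input samples entered only through the authors' normalisation. Reads were processed with cutadapt, STAR, GATK, Picard and SAMtools against hg19, per the submitters' processing notes. For the peak caller, the software was not given in the sources used here. Each list holds, per peak, the authors' deposited −log10 p (0 to 400, and 0 where the fold is negative) and the authors' deposited log2 fold over size-matched input, as read from the values. Peaks were called per library and not pooled. Folds and p-values are the authors' own for each peak.

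Peaks were assigned to a transcript by an overlap of 1 nt on the same strand. The V5-only and FLAG-only lists were compared by an exact sign-flip permutation test over gel ranges on the median log2 fold, on every 10 kb window per strand with at least 3 called peaks per library and on the 3 transcripts, with Benjamini-Hochberg adjustment over all of them; proteins were compared by an exact permutation test. 6 exact tests concern the transcripts. Shares carry exact Clopper-Pearson 95% intervals, and a count of 0 is given the limit that 3 counts allow; both cover counting error over peaks. The tests were checked on simulated data. Sites named are those significant in the most libraries and the highest significant peak per protein library; windows named are the 3 of highest rho per transcript. The members, motifs and lists were chosen with earlier results of these data known. Lists of other long noncoding RNAs and motifs inside hg19 peak sequence were not analysed here; motifs were instead matched in GENCODE v29 transcripts, after the peaks had been seen. Tools were Python 3.11.15, pandas 2.3.3, NumPy 2.4.6, SciPy 1.17.1, statsmodels 0.14.6 and bedtools 2.31.1.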

Additional observations from a re-analysis of the deposited data

Results flagged for a closer look

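The median log2 fold, the number of called peaks and the share of peaks whose −log10 p reached 3 were screened over the 7 gel ranges, for each transcript and each tag antibody. Of these 18 sets, 3 had 1 library standing well clear of the other 6; about 1 set in 20 would do so by chance. All 3 were from the range of 125-200 kDa. The NEAT1 share past the p threshold was 50.9% in FLAG-only 125-200 kDa, against 12.3% in the next library. The NORAD median log2 fold was 2.49 in the same library, against 1.25 in the next. The NORAD share past the p threshold was 21.4% in V5-only 125-200 kDa, against 7.14% in the next. These libraries also had the highest background share of significant peaks of their antibody, 22.1% and 11.5%; the part of the gel range in these values was not tested.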

How the results depend on the processing

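Of 15 alternatives to the FLAG-only against V5-only tests, 10 kept the direction and the side of the threshold, and of 13 to the numbers of significant peaks, 9 stayed within 1.5 times. The 27 alternatives for nuclear against cytoplasmic proteins kept their sign; none could pass the threshold, so they say nothing of its stability, and that of the wild-type libraries alone on MALAT1 was 0.05 (exact permutation p = 1). The exact sign-flip adjusted p of the NEAT1 difference between FLAG-only and V5-only was 0.0473, and ranged from 0.0269 to 0.121 over the alternatives: it was lost with each library's median subtracted (difference −1.04, adjusted p = 0.121) and without the range of 125-200 kDa (−0.66, adjusted p = 0.0877), although the difference was larger in both. In the first the unadjusted exact sign-flip p of NEAT1 stayed at 0.0156, the smallest that 7 ranges allow. Its higher adjusted p thus comes from the adjustment over all features alone. The second has fewer ranges. On bases in a called peak of both libraries, chosen after seeing the data, MALAT1 (−0.23) and NORAD (0.32) passed at an exact sign-flip adjusted p of 0.0269, and NORAD passed with peaks of 20 nt or more (0.58, adjusted p = 0.0425). With the library median subtracted, the NORAD difference was 0.01 and that of MALAT1 −0.61. With a log2 fold of at least 2, significant peaks rose to 28 in MALAT1, 134 in NEAT1 and 22 in NORAD, and without RBFOX2 wild type NEAT1 had 9. Leaving out each protein in turn gave nuclear minus cytoplasmic differences of 0.30 to 0.50 on MALAT1, 0.65 to 1.18 on NEAT1 and −1.46 to −0.91 on NORAD. The labels give no replicate numbers by which to pair the protein libraries. The tag-only libraries were paired by gel range in the main test. Depth in reads is unknown, and 7 to 25 called peaks per library limit every NORAD value.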

Other observations

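The wild-type and tagged libraries of LIN28 ordered the 3 transcripts alike (NORAD, NEAT1, MALAT1 from the highest), as did HNRNPC wild type and V5 isoform 2 (NEAT1, MALAT1, NORAD), while those of RBFOX2, FMR1 and DGCR8 did not. The NEAT1 median log2 fold was 0.72 in RBFOX2 V5 and 2.04 in RBFOX2 wild type, whereas on MALAT1 the same libraries had 0.26 and 0.28, and on NORAD 0.88 and −0.27. For FMR1 the tagged library was the lower one on both nuclear transcripts (−0.69 against 0.46 on MALAT1, −0.48 against 0.38 on NEAT1) and the higher one on NORAD (1.63 against 1.45). For DGCR8 the FLAG library was higher on MALAT1 (0.55 against −0.01) and lower on NEAT1 (0.88 against 1.5). Each of these is a pair of single libraries with no replicate, and none of the differences was tested.

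The share of called peaks above input ran from 40% to 100% on NORAD, from 23.9% to 97.1% on NEAT1 and from 7.32% to 90.7% on MALAT1, with medians of 88.9%, 79.2% and 50.8%. The ranges overlap and the order of the transcripts was not the same in every library: HNRNPC V5 isoform 1 had 86.6% on MALAT1 and 50% on NORAD, and RBFOX2 wild type 70.8% and 40%. Every called NORAD peak was above input in 10 of 25 libraries, namely both libraries of FMR1 and of LIN28, DGCR8 wild type and 5 tag-only libraries.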
